A study of Mus musculus with 5 samples.

Results

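Aminoacyl-tRNA synthetases are described here in IL-4-treated mouse macrophages with and without CBR-5884, a compound that blocks PHGDH, the first enzyme of serine synthesis. The members were chosen by name: 36 genes of 49246 in the gene table, of which 20 encode enzymes of the cytosol and 16 enzymes of mitochondria, with names that end in 2. The 5 RNA-seq libraries came from bone marrow-derived macrophages of wild-type C57BL/6 mice, cultured for 6 days in medium with CSF1 or L929 cell supernatant; the labels do not say which. Cells of the CBR-5884 group were pre-treated with 30 µM CBR-5884 and then received 10 ng/ml IL-4 for 24 h (3 libraries, replicates 3, 4 and 5). Cells of the solvent group were pre-treated with solvent and received the same IL-4 (2 libraries, replicates 3 and 5). All 5 libraries therefore carry IL-4, and cells without it were not analysed here. No source used here says that the replicates were separate animals or cultures, so each p-value covers the scatter of these libraries alone, which may be technical.

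Each synthetase joins 1 amino acid to its tRNAs, the step that fixes the genetic code before translation on the ribosome. The enzymes fall into class I and class II by the fold of the catalytic domain. In the cytosol of animal cells 8 of the listed enzymes are held in the multisynthetase complex with 3 scaffold proteins, while the others work outside it. Nearly all mitochondrial synthetases are separate nuclear genes; Gars and Kars make both a cytosolic and a mitochondrial enzyme. Many cytosolic synthetase genes are known targets of ATF4, which drives transcription when amino acids run short and binds C/EBP-ATF response elements.

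The promoter stretches shown here are those in which the core letters of that element were found, because the element is the textbook link between amino acid shortage and this gene family. The motif TGATGNAA was searched on both strands in the 250 bases before each transcription start of the RefSeq promoter table (GRCm38.p6). It matched in 3 of 13 cytosolic members with an entry (23.1%) and in 0 of 14 mitochondrial members (15 promoters), against 1056 of all 27025 genes in the table (3.91%; 1134 of 32851 promoters, or 3.45%). No entry was matched for Cars, Hars, Lars, Nars, Rars, Vars, Wars, Hars2 and Pars2. The 3 matches lie at chr8:111033705-111033762 on the plus strand (Aars), at chr6:55037946-55038000 on the plus strand (Gars) and at chr15:11399659-11399698 on the minus strand (Tars). Each is printed 5′ to 3′ on the strand of the gene, with the match, which reads as the reverse complement TTNCATCA, in capitals.
Aars: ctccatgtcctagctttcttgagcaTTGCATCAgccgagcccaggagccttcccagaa
Gars: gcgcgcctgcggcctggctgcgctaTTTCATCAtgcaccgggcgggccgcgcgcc
Tars: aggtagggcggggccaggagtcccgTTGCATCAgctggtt
The first base of the match is 112, 30 and 15 bases before the RefSeq start of Aars, Gars and Tars. A match describes letters only, and binding was not measured.

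Values are gene FPKM (fragment counts divided by transcript length and by the mapped fragments of the library), deposited by the authors per transcript and summed here per gene. The ratio of coverage to FPKM implies 30230000 to 30700000 fragments per CBR-5884 library and 28310000 to 28850000 per solvent library. Across the 10316 tested genes above 0 in every library, Pearson's r of log2 values was 0.984 to 0.985 for libraries of 1 group and 0.978 to 0.981 for libraries of different groups; this is across genes, which are not replicates. Macrophage markers were abundant: the 6 genes summed to 9721 to 13051 FPKM with CBR-5884 and to 10980 to 13059 with solvent, mostly Lyz2. Of them Cd68 (log2 fold change 0.19, limma adjusted p = 0.132) and Itgam (0.30, limma adjusted p = 0.182) were higher in every CBR-5884 library than in both solvent libraries. These are 33.3% of the 6, beside 16.6% of all genes tested. The other 4 overlapped between the groups, with log2 fold changes of 0.05 (Adgre1), 0.08 (Mertk), -0.08 (Csf1r) and -0.17 (Lyz2). Summed T cell and B cell markers were at or below 0.330 FPKM in every library, and Cd3e, Cd3d, Cd3g, Hbb-bs, Hbb-bt, Hba-a1 and Ly6g were listed at 0 in all 5. Dendritic cell markers summed to 0.811 to 1.13 FPKM with CBR-5884 and 1.24 to 1.88 with solvent. Neutrophil markers summed to 10.3 to 12.7 FPKM with CBR-5884 and 9.58 to 19.97 with solvent. Fibroblast markers summed to 10.8 to 17.1 FPKM with CBR-5884 and 17.9 to 18.9 with solvent, without overlap. The part of Cd68, Itgam and the fibroblast markers in the results was not tested. In bulk samples fewer cells of a type and less RNA per cell cannot be told apart.

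No synthetase gene passed the test. CBR-5884 was compared with solvent with limma on log2(FPKM + 1) over the 10769 genes with a mean of at least 1 FPKM, and a gene was called at a Benjamini-Hochberg adjusted p below 0.05. Of all genes tested 0.176% were called lower and 0.0464% higher with CBR-5884, against 0 of 20 cytosolic and 0 of 14 tested mitochondrial members. Mars2 and Ears2, with means under 1 FPKM, were not tested. At an unadjusted limma p below 0.05, 5 cytosolic members were lower (25%) and 1 was higher (5%), beside 12.4% and 7.24% of all genes tested. No mitochondrial member was below that p in either direction. The lowest adjusted p of any member was 0.133, and over 17 alternative settings it was 0.0809.

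Median log2 fold changes were -0.06 over the cytosolic members and -0.14 over the tested mitochondrial members, beside -0.03 over all genes tested. Fold changes are CBR-5884 over solvent after adding 1 FPKM, which makes those of low genes too small. They were negative in 14 of 20 cytosolic and 10 of 14 mitochondrial members, beside 55.7% of all genes tested, and positive in the others, beside 44.3%. In 9 of 20 cytosolic members all 3 CBR-5884 values lay under both solvent values, and in 3 they lay above them, beside 24.9% and 16.6% of all genes tested. The mitochondrial counts were 3 and 1 of 14. The balance at an unadjusted p below 0.05 depended on scaling. Over all genes tested it was 780 higher and 1334 lower as deposited, 1170 higher and 1017 lower on a TPM scale, 1091 higher and 1003 lower with median ratios and 1163 higher and 945 lower with quantile normalization. Under each of these 3 scalings the cytosolic members had 5 lower and 3 higher (Dars, Eprs and Farsb), and Iars2 was the 1 mitochondrial member below that p, on the higher side.

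**Figure D1:**
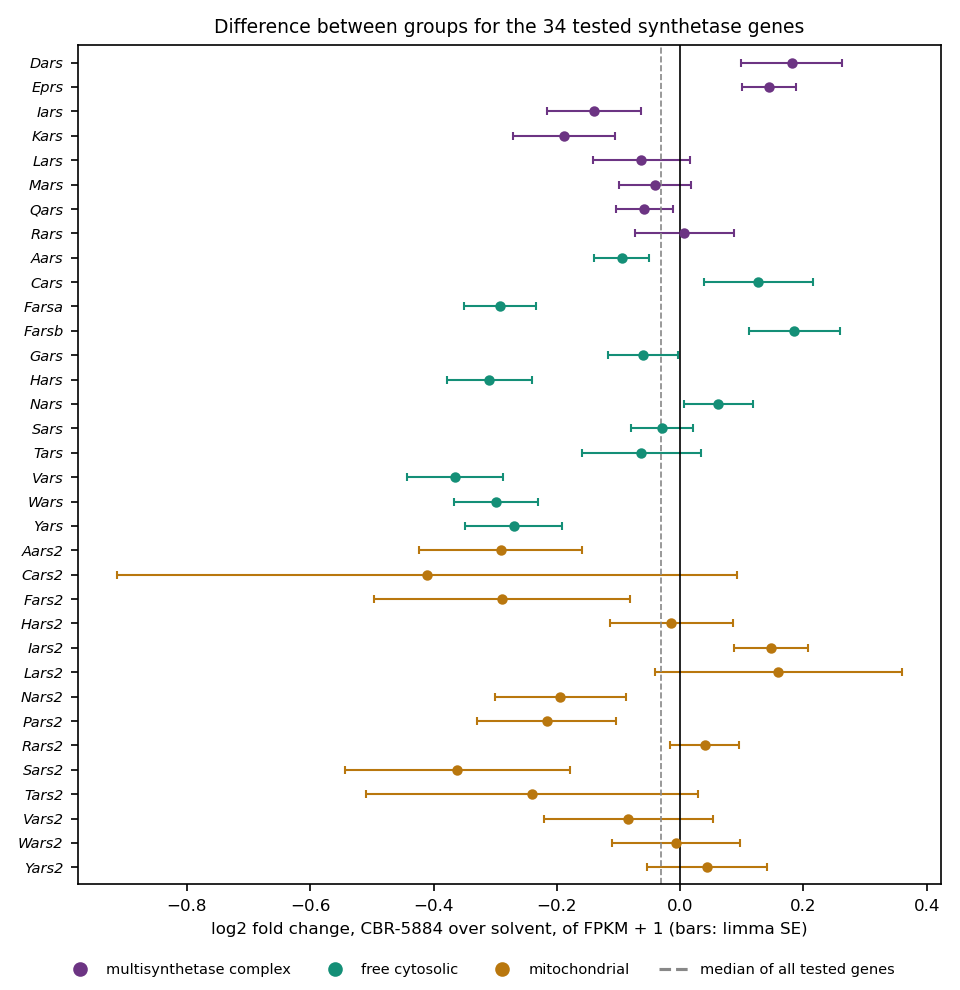
Log2 fold change of FPKM + 1, CBR-5884 over solvent, for the 34 tested synthetase genes (points; bars are limma's standard error), by multisynthetase complex, other cytosolic and mitochondrial enzymes, with the median of all tested genes (-0.03) as a dashed line. Vars (-0.37), Hars (-0.31), Wars (-0.30), Farsa (-0.29) and Yars (-0.27) lie farthest to the left among cytosolic members; Cars2 lies farther left still (-0.41) with a standard error of 0.50.

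The 5 cytosolic members with the lowest p-values were enzymes outside the multisynthetase complex. Of the 12 members outside it, 5 were lower at an unadjusted limma p below 0.05 (41.7%) and 0 were higher. The shares of all genes tested were 12.4% and 7.24%. The difference between these members and those of the complex was not tested. Farsa, the catalytic alpha subunit of phenylalanyl-tRNA synthetase (chromosome 8, 84856989 to 84869257, GRCm38), was at 17.9, 19.7 and 18.6 FPKM in the CBR-5884 libraries, against 23.4 and 22.9 in the solvent libraries. All 3 CBR-5884 libraries were under both solvent libraries. The log2 fold change was -0.29 (SE 0.06, limma unadjusted p = 0.0056, adjusted p = 0.133).

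Farsb encodes the beta subunit of the same enzyme, which is a heterotetramer (chromosome 1, 78417975 to 78488897). It was at 29.4, 30.4 and 26.7 FPKM in the CBR-5884 libraries, against 26.0 and 24.5 in the solvent libraries. Here all 3 CBR-5884 libraries were above both solvent libraries, the other way from Farsa. The log2 fold change was 0.18 (SE 0.07, limma unadjusted p = 0.0596, adjusted p = 0.276). The FPKM of Farsa divided by that of Farsb was 0.608, 0.648 and 0.696 with CBR-5884 and 0.899 and 0.936 with solvent. The ratios of the groups did not overlap; the ratio was computed after the values were seen and was not tested. The sign of Farsa stayed negative and that of Farsb positive in all 17 alternative settings.

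**Figure D2:**
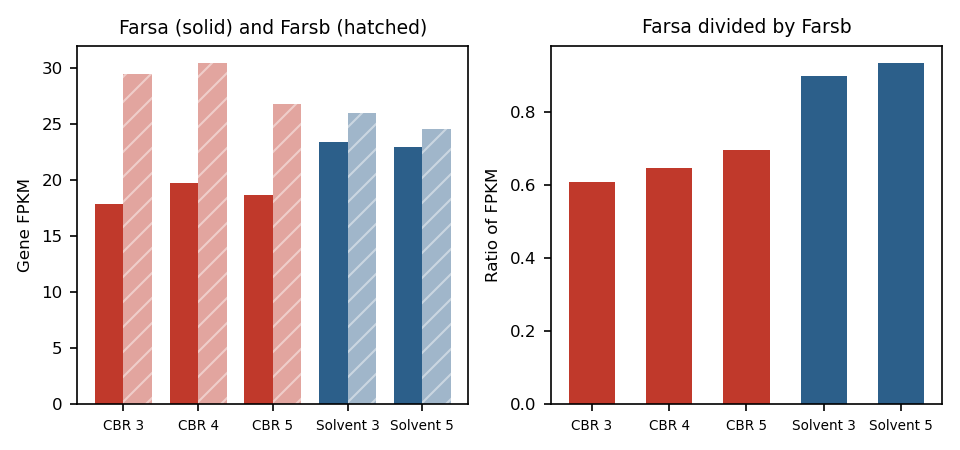
Gene FPKM of the phenylalanyl-tRNA synthetase subunits Farsa (solid bars) and Farsb (hatched bars) in each library, left, and their ratio, right; CBR-5884 libraries are red and solvent libraries blue. Bars are single libraries, so there are no error bars. The ratio is 0.608 to 0.696 in the CBR-5884 libraries and 0.899 to 0.936 in the solvent libraries.

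Vars encodes valyl-tRNA synthetase, a class I enzyme that associates with elongation factor 1 (chromosome 17, 35000987 to 35016322). It was at 8.34, 9.61 and 9.22 FPKM in the CBR-5884 libraries, against 12.4 and 11.5 in the solvent libraries. The groups did not overlap, and the log2 fold change, -0.37, was the most negative of the cytosolic members (SE 0.08, limma unadjusted p = 0.00697, adjusted p = 0.14). The authors' 95% intervals of its main transcript also stayed apart, with the highest upper bound at 10.3 FPKM with CBR-5884 and the lowest lower bound at 10.8 with solvent. The intervals of the main transcript also stayed apart for Hars, Eprs and Farsb. For Farsb, another reference transcript was listed in the solvent libraries only, at 3.07 and 2.56 FPKM. The main Farsb transcript alone had a log2 fold change of 0.35, against 0.18 for the gene sum. Its interval gap therefore describes that transcript and not the gene sum. The intervals overlapped for Farsa (up to 20.1 FPKM with CBR-5884 and from 17.2 with solvent). They overlapped for Wars (up to 12.1 with CBR-5884 and from 8.49 with solvent). They also overlapped for Yars (up to 7.19 with CBR-5884 and from 6.57 with solvent) and for every other tested member except Lars2. The intervals of Lars2 were not compared, because its reference transcript was listed at 0 in solvent replicate 3.

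Hars, histidyl-tRNA synthetase, lies on chromosome 18 (36766528 to 36783205) head to head with Hars2, its mitochondrial partner. The main transcripts of the pair start 26 bases apart on opposite strands, and 195 nt of their exons overlap. Hars was at 16.8, 19.0 and 17.8 FPKM in the CBR-5884 libraries, against 21.99 and 22.7 in the solvent libraries. Every CBR-5884 library was under every solvent library (log2 fold change -0.31, SE 0.07, limma unadjusted p = 0.00803, adjusted p = 0.144). Hars2 was at 7.89, 8.75 and 9.82 FPKM in the CBR-5884 libraries, against 9.15 and 8.63 in the solvent libraries. These groups overlapped, with a log2 fold change of -0.01 (SE 0.10, limma adjusted p = 0.946). Hars divided by Hars2 was 2.12, 2.18 and 1.81 with CBR-5884 and 2.40 and 2.63 with solvent. The libraries were made with a directional kit, but which strand setting Cufflinks used is not given in the sources used here, so reads in the shared exon may be counted for either gene.

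Wars, tryptophanyl-tRNA synthetase, is known as the interferon-inducible member of the family (chromosome 12, 108860030 to 108894174). It was at 14.1, 16.1 and 15.2 FPKM in the CBR-5884 libraries, against 19.1 and 18.6 in the solvent libraries, with no overlap of the groups. Its log2 fold change was -0.30 (SE 0.07, limma unadjusted p = 0.00929, adjusted p = 0.15). The sum is carried by 2 or 3 reference transcripts in each library. The most abundant of them, taken alone, was at 6.62, 7.82 and 11.1 FPKM in the CBR-5884 libraries, against 9.52 and 10.5 in the solvent libraries, which overlap (log2 fold change -0.23, limma adjusted p = 0.684).

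Of 8 listed interferon response genes 5 were tested, and 0 were called. At an unadjusted limma p below 0.05, 1 was lower (20%) and 0 were higher, beside 12.4% and 7.24% of all genes tested. The median log2 fold change of these 5 was -0.47, beside -0.03 over all genes tested. The guanylate-binding protein gene Gbp2 was at 15.5, 15.3 and 18.04 FPKM in the CBR-5884 libraries, against 22.6 and 26.0 in the solvent libraries (limma adjusted p = 0.132). Isg15, a ubiquitin-like modifier, averaged 4.23 ± 1.22 FPKM with CBR-5884 against 6.18 ± 1.602 with solvent (SD, n = 3 and 2; limma adjusted p = 0.393).

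Yars, tyrosyl-tRNA synthetase, was the least abundant cytosolic member (chromosome 4, 129189760 to 129219607). It was at 5.94, 6.58 and 6.17 FPKM in the CBR-5884 libraries, against 8.20 and 7.24 in the solvent libraries. The CBR-5884 values were all lower, with a log2 fold change of -0.27 (SE 0.08, limma unadjusted p = 0.0221, adjusted p = 0.19). Its exons overlap C77080 on the opposite strand by 30 nt.

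**Figure D3:**
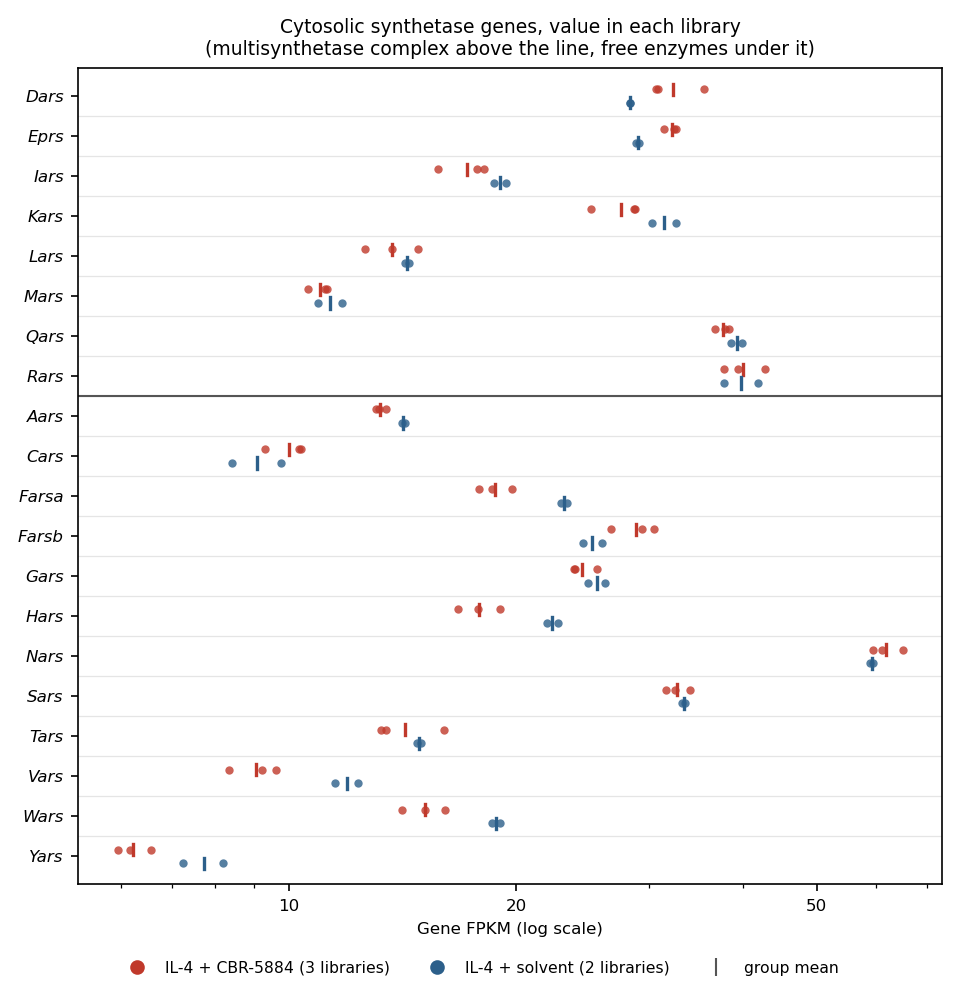
Gene FPKM of the 20 cytosolic synthetases on a log axis, with 1 point per library and a bar at the group mean; CBR-5884 (red) is drawn above solvent (blue), and the enzymes of the multisynthetase complex stand above the line. Nars is the most abundant, at 58.8 to 65.0 FPKM, and Yars the least, at 5.94 to 8.20 FPKM. All red points lie under both blue values for 9 members: Farsa, Hars, Vars, Wars, Yars, Aars, Iars, Kars and Qars. They lie above both for 3 members: Dars, Eprs and Farsb. These are 45% and 15% of 20, beside 24.9% and 16.6% of all genes tested.

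In the multisynthetase complex 1 of 8 enzymes was below an unadjusted limma p of 0.05, and it was higher with CBR-5884. That is 12.5% higher and 0 lower, beside 7.24% higher and 12.4% lower of all genes tested. Eprs, the joined glutamyl- and prolyl-tRNA synthetase (chromosome 1, 185363044 to 185428360), was at 31.4, 32.4 and 32.6 FPKM in the CBR-5884 libraries, against 28.8 and 29.1 in the solvent libraries. Its groups did not overlap (log2 fold change 0.14, SE 0.04, limma unadjusted p = 0.0245, adjusted p = 0.198). The authors' 95% intervals of its transcript were apart too, from 30.6 FPKM upward with CBR-5884 and up to 30.0 with solvent.

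Dars, aspartyl-tRNA synthetase, averaged 32.3 ± 2.78 FPKM with CBR-5884 and 28.3 ± 0.02 with solvent (SD, n = 3 and 2), again without overlap (log2 fold change 0.18). Kars, lysyl-tRNA synthetase, was at 25.1, 28.6 and 28.8 FPKM in the CBR-5884 libraries, against 30.3 and 32.6 in the solvent libraries. Its CBR-5884 libraries were under both solvent libraries (log2 fold change -0.19, SE 0.08, limma unadjusted p = 0.0776, adjusted p = 0.306). Iars, isoleucyl-tRNA synthetase, averaged 17.2 ± 1.27 and 19.0 ± 0.46 FPKM in the CBR-5884 and solvent groups, without overlap (log2 fold change -0.14).

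Of the most abundant members, Nars, asparaginyl-tRNA synthetase, was at 65.0, 61.1 and 59.4 FPKM in the CBR-5884 libraries, against 59.5 and 58.8 in the solvent libraries (log2 fold change 0.06 with an SE of 0.06, adjusted p = 0.579 by limma). Rars, arginyl-tRNA synthetase, was at 37.7, 42.7 and 39.3 FPKM in the CBR-5884 libraries, against 37.7 and 41.8 in the solvent libraries (log2 fold change 0.01 with an SE of 0.08, adjusted p = 0.968 by limma). Qars, glutaminyl-tRNA synthetase, was at 36.7, 37.8 and 38.2 FPKM in the CBR-5884 libraries, against 39.9 and 38.5 in the solvent libraries (log2 fold change -0.06 with an SE of 0.05, adjusted p = 0.529 by limma). Only the Qars groups did not overlap, with a gap of 38.2 to 38.5 FPKM between them. In the whole complex 3 members were lower without overlap, 2 were higher without overlap and 3 overlapped (37.5% lower and 25% higher of 8, beside 24.9% and 16.6% of all genes tested).

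Sars, which charges tRNA with serine, the amino acid whose synthesis CBR-5884 targets, averaged 32.7 ± 1.18 FPKM with CBR-5884 and 33.4 ± 0.25 with solvent (log2 fold change -0.03 with an SE of 0.05, adjusted p = 0.771 by limma). Its groups overlapped. Gars, for glycine, which cells make from serine, averaged 24.5 ± 0.97 FPKM with CBR-5884 and 25.6 ± 0.93 with solvent (log2 fold change -0.06). Cars, for cysteine, averaged 10.0 ± 0.60 FPKM with CBR-5884 and 9.09 ± 0.95 with solvent (log2 fold change 0.13). Both of these overlapped between the groups.

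Among the remaining cytosolic members Aars, for alanine, averaged 13.2 ± 0.21 FPKM with CBR-5884 and 14.2 ± 0.09 with solvent (log2 fold change -0.09), without overlap. Bases 4425 to 5750 of its main transcript (1326 nt) are also exon of Exosc6 on the same strand. Exosc6 was listed at 0 in all 5 libraries, so reads of that stretch counted for Aars may belong to either gene. In CBR-5884 replicate 3, 73.4% of the Aars sum was on assembled transcripts, and with reference transcripts only the log2 fold change was -0.65 (limma adjusted p = 0.653). Lars, for leucine, averaged 13.7 ± 1.10 FPKM with CBR-5884 and 14.4 ± 0.11 with solvent (log2 fold change -0.06). Mars, for methionine, averaged 11.0 ± 0.33 FPKM with CBR-5884 and 11.4 ± 0.60 with solvent (log2 fold change -0.04). Tars, for threonine, averaged 14.3 ± 1.55 FPKM with CBR-5884 and 14.9 ± 0.14 with solvent (log2 fold change -0.06). Each of these 3 overlapped. Mars shares 68 nt of exon with Ddit3 on the opposite strand.

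By catalytic class, 3 of 9 class I and 2 of 10 class II cytosolic members were lower at an unadjusted p below 0.05 and 0 were higher in either class; Eprs belongs to both classes and is in neither count. These are 33.3% and 20% lower, beside 12.4% lower and 7.24% higher of all genes tested. Over the 12 members listed as ATF4 targets the median was -0.06 on the log2 scale, with 2 lower (Wars and Yars) and 1 higher (Eprs) at that p (16.7% and 8.33%, beside the same shares of all genes). Aars, Gars and Tars, whose promoter stretches are printed above, had log2 fold changes of -0.09, -0.06 and -0.06 and adjusted p-values of 0.329, 0.595 and 0.745 by limma.

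Atf4 itself was at 45.7, 48.3 and 46.0 FPKM in the CBR-5884 libraries, against 46.7 and 47.5 in the solvent libraries (limma adjusted p = 0.901). Of the 10 listed amino acid response genes 8 were tested and 0 were called. At an unadjusted limma p below 0.05, 1 was lower (12.5%) and 0 were higher, beside 12.4% and 7.24% of all genes tested. The median log2 fold change of the list was -0.21, beside -0.03 over all genes tested. Sesn2, a stress-induced inhibitor of mTORC1, was at 3.91, 3.62 and 4.21 FPKM in the CBR-5884 libraries, against 5.25 and 5.13 in the solvent libraries (limma adjusted p = 0.154). Mthfd2, a mitochondrial folate enzyme, averaged 3.91 ± 0.46 and 4.805 ± 0.41 FPKM in the CBR-5884 and solvent groups (limma adjusted p = 0.32).

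The mitochondrial members were mostly low. Of 16, 14 reached a mean of 1 FPKM, and estimated fragments per library behind a tested member were as few as 114 (Pars2). Iars2, mitochondrial isoleucyl-tRNA synthetase (chromosome 1, 185284726 to 185329396), had the lowest p of this group and was at 13.5, 13.5 and 13.8 FPKM in the CBR-5884 libraries, against 11.6 and 12.8 in the solvent libraries. The CBR-5884 libraries were all higher (log2 fold change 0.15, SE 0.06, limma unadjusted p = 0.0615, adjusted p = 0.28). The 3′ part of its main transcript, bases 3438 to 5471, overlaps exons of Rab3gap2 on the opposite strand (2034 nt), and Rab3gap2 averaged 20.4 FPKM over the 5 libraries. Rab3gap2 was at 21.5, 21.1 and 20.5 FPKM in the CBR-5884 libraries, against 19.46 and 19.52 in the solvent libraries. Its CBR-5884 libraries were thus all higher too. Reads of the shared stretch may be counted for either gene, and their part in the Iars2 values was not tested.

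Aars2, for alanine, was at 1.72, 1.94 and 2.37 FPKM in the CBR-5884 libraries, against 2.84 and 2.50 in the solvent libraries (log2 fold change -0.29 with an SE of 0.13, adjusted p = 0.319 by limma). Pars2, for proline, was at 1.56, 1.76 and 1.44 FPKM in the CBR-5884 libraries, against 2.07 and 1.93 in the solvent libraries (log2 fold change -0.22 with an SE of 0.11, adjusted p = 0.365 by limma). Nars2, for asparagine, was at 1.70, 1.67 and 1.46 FPKM in the CBR-5884 libraries, against 2.03 and 1.94 in the solvent libraries (log2 fold change -0.19 with an SE of 0.11, adjusted p = 0.388 by limma). These are the 3 mitochondrial members in which every CBR-5884 library was under both solvent libraries.

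Sars2, for serine, was at 3.75, 4.34 and 5.21 FPKM in the CBR-5884 libraries, against 7.03 and 4.99 in the solvent libraries, which overlap (log2 fold change -0.36 with an SE of 0.18, adjusted p = 0.357 by limma). The Sars2 value was -0.15 without solvent replicate 3, its highest library, -0.57 without solvent replicate 5 and 0.10 with reference transcripts only. Fars2, for phenylalanine, was at 7.31, 7.37 and 8.84 FPKM in the CBR-5884 libraries, against 7.72 and 12.3 in the solvent libraries (log2 fold change -0.29 with an SE of 0.21, adjusted p = 0.489 by limma). Solvent replicate 5 alone sets the high end: without it the Fars2 log2 fold change was 0.01. Tars2, for threonine, was at 8.62, 8.45 and 12.9 FPKM in the CBR-5884 libraries, against 14.8 and 9.36 in the solvent libraries (log2 fold change -0.24 with an SE of 0.27, adjusted p = 0.651 by limma). Here solvent replicate 3 was the highest, and without it the Tars2 log2 fold change was 0.06.

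Cars2, for cysteine, was at 6.91, 20.5 and 7.30 FPKM in the CBR-5884 libraries, against 15.3 and 12.6 in the solvent libraries. CBR-5884 replicate 4 stood above all others and its companions under both solvent libraries (log2 fold change -0.41 with an SE of 0.50, adjusted p = 0.678 by limma). Without that replicate the log2 fold change was -0.88 (limma adjusted p = 0.217). The assembled share of Cars2, the part of its FPKM on transcripts that Cufflinks built from the reads, was 22.6% to 85.7% per library. The reference transcript alone was at 5.35, 3.14 and 3.20 FPKM in the CBR-5884 libraries, against 2.19 and 6.25 in the solvent libraries, which overlap. In CBR-5884 replicate 4 the sum included 4 assembled transcripts of 393 to 1419 nt. Estimated fragments of Cars2 were 388, 564 and 385 in the CBR-5884 libraries, against 510 and 494 with solvent. Covered bases over the length of the reference transcript gave 6.71, 9.80 and 6.59 with CBR-5884, against 9.29 and 9.17 with solvent. The log2 fold change was then -0.25. Cars2 exons overlap Naxd on the opposite strand by 422 nt, and Naxd averaged 25.8 FPKM.

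**Figure D4:**
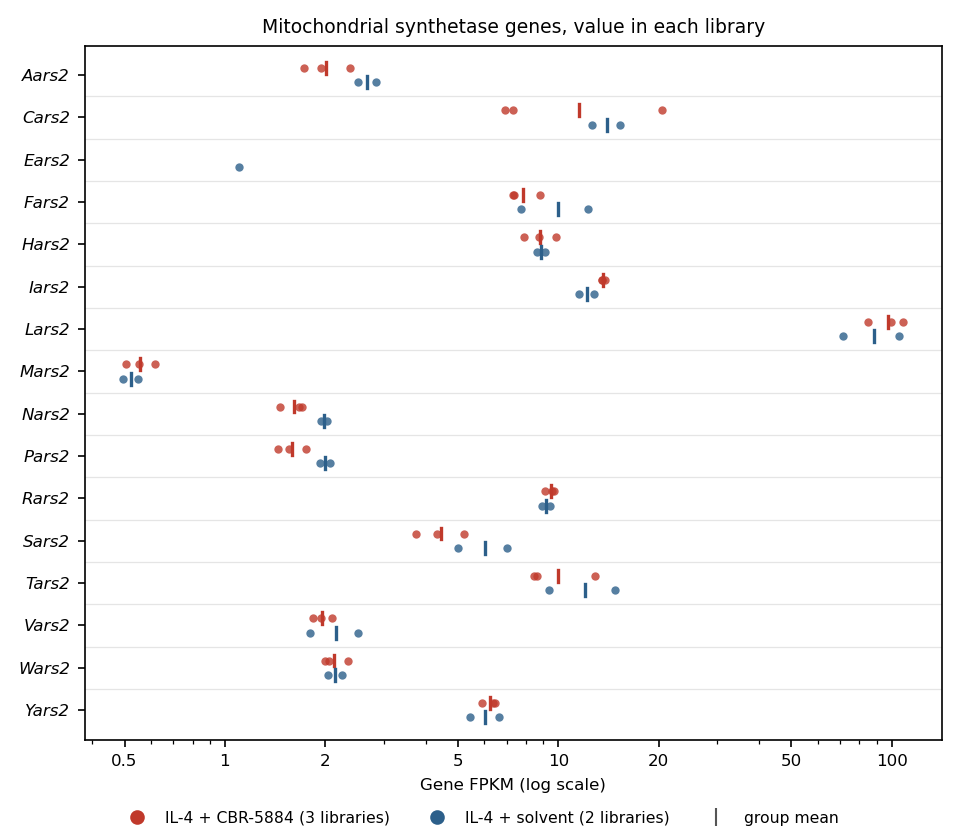
Gene FPKM of the 16 mitochondrial synthetases on a log axis, with 1 point per library and a bar at the group mean; CBR-5884 (red) is drawn above solvent (blue). Values of 0 cannot be drawn on this axis: Ears2 was listed at 0 in 4 libraries and shows 1 blue point at 1.10 FPKM with no mean. Lars2 stands apart at 71.6 to 108 FPKM, and Cars2 has 1 red point, at 20.5 FPKM, far from its other red points.

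Lars2, mitochondrial leucyl-tRNA synthetase (chromosome 9, 123366927 to 123462666), was by its sum the most abundant member of either group, at 85.0, 108 and 99.3 FPKM in the CBR-5884 libraries, against 71.6 and 105 in the solvent libraries. The groups overlapped (log2 fold change 0.16 with an SE of 0.20, adjusted p = 0.685 by limma). Assembled transcripts held 93.4% to 100% of that sum. In 4 libraries they were 1678 to 1828 nt long and spanned the 3′ end of the gene, from 123454324 at the earliest to 123462664. In solvent replicate 3 a single assembled transcript of 3000 nt took the whole sum and the reference transcript was listed at 0. The reference transcript was at 5.63, 5.40 and 5.22 FPKM in the CBR-5884 libraries, against 5.91 in solvent replicate 5, a level within the range of the other mitochondrial members. Within it, bases 3278 to 3349 are 98.6% identical to 72 nt of Gm15564, a gene on chromosome 16; no other member had such a stretch (70 nt or more at 97% identity or more) in a gene elsewhere. The level of Lars2 is therefore uncertain, and where the reads of its 3′ end belong was not tested.

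Ears2, for glutamate, was listed at 0 in all 3 CBR-5884 libraries and in solvent replicate 3, and at 1.10 FPKM in solvent replicate 5, on an assembled transcript of 1100 nt. Its reference transcript was listed at 0 in all 5 libraries. So was Aimp2, a scaffold of the multisynthetase complex, and a 0 in these files can be a failed estimate. Mars2, for methionine, averaged 0.558 ± 0.056 FPKM with CBR-5884 and 0.523 ± 0.038 with solvent, and these values overlapped.

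The other mitochondrial members overlapped between groups. Rars2, for arginine, averaged 9.49 ± 0.31 FPKM with CBR-5884 and 9.20 ± 0.34 with solvent (log2 fold change 0.04). Yars2, for tyrosine, averaged 6.23 ± 0.30 FPKM with CBR-5884 and 6.04 ± 0.84 with solvent (log2 fold change 0.04). Vars2, for valine, averaged 1.96 ± 0.12 FPKM with CBR-5884 and 2.16 ± 0.50 with solvent (log2 fold change -0.08). Wars2, for tryptophan, averaged 2.13 ± 0.19 FPKM with CBR-5884 and 2.14 ± 0.14 with solvent (log2 fold change -0.01).

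The way in which transcripts were added up moved the mitochondrial median more than the cytosolic one. Assembled transcripts were present in at least 1 library for 10 of 16 mitochondrial and 6 of 20 cytosolic members. With reference transcripts only, the mitochondrial median was 0.02 and the cytosolic median -0.05. Of the cytosolic members described above, Nars then had a log2 fold change of 0.24 and Kars of -0.33, each with part of its sum on an assembled transcript in CBR-5884 replicate 3, and Nars also in solvent replicate 3. As an alternative chosen after the values were seen, the covered bases of all assigned transcripts were divided by the length of the main reference transcript. The mitochondrial median was then -0.16, and 3 members were below an unadjusted limma p of 0.05. Tars2 was at 8.56, 8.45 and 8.58 on this FPKM scale in the CBR-5884 libraries, against 10.5 and 9.60 with solvent, with no overlap (log2 fold change -0.21, SE 0.05, limma unadjusted p = 0.01, adjusted p = 0.107). Aars2 was again lower (log2 fold change -0.26, limma unadjusted p = 0.0477) and Iars2 higher (0.15, limma unadjusted p = 0.0435). Lars2 was at 39.8, 52.3 and 49.4 in the CBR-5884 libraries, against 55.2 and 51.6 in the solvent libraries, and its log2 fold change was -0.18 in place of 0.16.

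**Figure D5:**
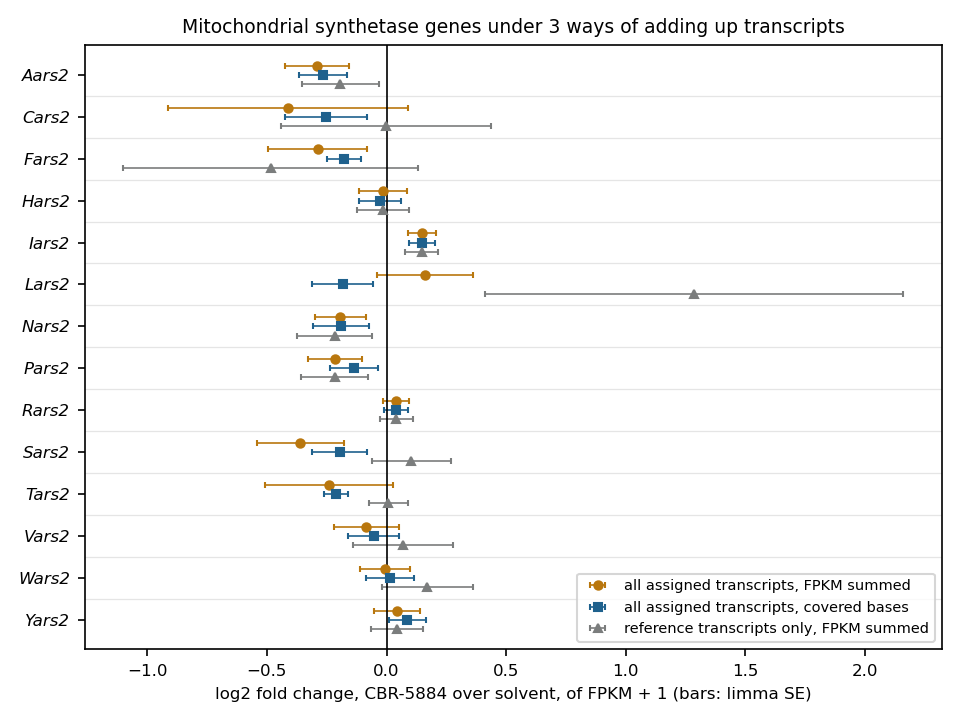
Log2 fold change of FPKM + 1, CBR-5884 over solvent, of the 14 tested mitochondrial synthetases under 3 ways of adding up transcripts (points; bars are limma's standard error). The 3 points of Iars2, Rars2, Hars2 and Nars2 lie close together, while Lars2 has 0.16 with all FPKM summed, -0.18 by covered bases and 1.29 with reference transcripts only, with the reference transcript listed at 0 in solvent replicate 3.

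Among 12 cytosolic members whose mitochondrial partner has the same symbol followed by 2, both tested, the log2 fold changes had the same sign in 7. With 70% of cytosolic and 71.4% of tested mitochondrial members negative, many pairs would share a sign without any link. Of the 5 most negative cytosolic members, 4 had a partner nearer 0: Vars -0.37 and Vars2 -0.08, Hars -0.31 and Hars2 -0.01, Wars -0.30 and Wars2 -0.01, Yars -0.27 and Yars2 0.04. The other, Farsa, was at -0.29, as was Fars2, while Farsb was at 0.18; Fars2 was at 0.01 without solvent replicate 5. For proline, Eprs was at 0.14 and Pars2 at -0.22. For serine, Sars was at -0.03 and Sars2 at -0.36, but Sars2 was at 0.10 with reference transcripts only and at -0.15 without solvent replicate 3. For isoleucine the signs were opposite, with Iars at -0.14 and Iars2 at 0.15. Differences between partners were not tested. The 5 most negative cytosolic members were picked by their values here, so partners nearer 0 can follow from that choice alone.

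Of the other genes around tRNA charging, 0 were called. The scaffold gene Aimp1 averaged 21.7 ± 0.95 FPKM with CBR-5884 against 22.5 ± 0.35 with solvent (limma adjusted p = 0.671). The scaffold gene Eef1e1 averaged 11.3 ± 1.46 FPKM with CBR-5884 against 11.1 ± 0.78 with solvent (limma adjusted p = 0.935). All 10 accessory genes had negative log2 fold changes, with a median of -0.10, beside 55.7% negative and a median of -0.03 over all genes tested; the median of all genes was 0.0077 on the TPM scale, 0.0037 with median ratios and 0.013 with quantile normalization. Of the accessory genes, 0 were below an unadjusted limma p of 0.05. Aarsd1, which clears wrong amino acids from the tRNA for alanine, was at 6.64, 7.58 and 7.58 FPKM in the CBR-5884 libraries. In the solvent libraries it was at 8.76 and 8.30 (log2 fold change -0.21, limma adjusted p = 0.256). Qrsl1, a subunit of the mitochondrial amidotransferase that makes glutaminyl-tRNA, averaged 4.99 ± 0.15 and 5.56 ± 0.42 FPKM in the CBR-5884 and solvent groups (limma adjusted p = 0.384).

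Elongation factors carry the charged tRNA to the ribosome and move it on. Of 9 listed 8 were tested, of which 5 were lower at an unadjusted limma p below 0.05 (62.5%, beside 12.4% of all genes tested), 0 were higher and 0 were called; the median log2 fold change was -0.20. Eef1b2, the exchange factor that recharges the tRNA carrier, was at 240, 245 and 239 FPKM in the CBR-5884 libraries, against 291 and 281 in the solvent libraries (log2 fold change -0.25, limma adjusted p = 0.122). Eef2, which moves the ribosome along the mRNA, was at 433, 416 and 435 FPKM in the CBR-5884 libraries, against 545 and 494 in the solvent libraries (log2 fold change -0.28, limma adjusted p = 0.14). In both genes the CBR-5884 libraries lay under both solvent libraries. The difference between this list and the synthetases was not tested.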

How the data were processed

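The deposited files list, per library, reference and Cufflinks-assembled transcripts with the authors' FPKM and its 95% interval; Bowtie2, TopHat2 and Cufflinks with mm10 (GRCm38) are named in the submitters' processing notes, and the sources used here do not give versions, annotation release or strand setting. Reference transcripts were assigned to genes by identifier through GENCODE M21 (99.5% matched), and assembled transcripts of at least 200 nt to the gene on their strand covering at least 50% of their exonic bases. Gene FPKM was the sum; of 49342 genes, 96 without a transcript in every library were dropped. Transcripts left out held 63.97% to 70.29% of summed FPKM but 8.49% to 10.2% of covered bases. FPKM is scaled within a library only. limma 3.58.1 (R 4.3.3; lmFit, eBayes with a variance trend, two-sided) was fitted to log2(FPKM + 1) without covariates and was tested on simulated data. Replicate numbers 3 and 5 recur in both groups, but no label ties them to an animal or day, and they were not treated as pairs. The correlation of their deviations from the group means was 0.07 and 0.08. With 2 solvent libraries the deviations of these libraries mirror each other, so this correlation cannot decide whether the replicates were paired. Members and lists were chosen with earlier results of these data known. Full values are given for the 8 members of each compartment with the lowest p, the 3 most abundant and any listed at 0; of pathway lists, the 2 genes with the lowest p, and others chosen after their values were seen. The summed level of the erythroid marker list is not reported here.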

Additional observations from a re-analysis of the deposited data

How the results depend on the processing

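With 3 and 2 libraries, 3 residual degrees of freedom limit every adjusted p, and members of 1 to 3 FPKM rest on few fragments. No member was called under any of 17 alternatives (16 planned and 1 added), and the log2 fold changes of 21 of 34 tested members never changed sign. The count of all genes called was 24; it was 38 with no filter on low values, 9 at a mean of at least 5 FPKM, 39 with reference transcripts only, 68 by covered bases and 19 to 89 when a replicate was left out (89 without solvent replicate 3, 66 without solvent replicate 5). Cytosolic members at an unadjusted p below 0.05 numbered 6, and 3 to 5 without a replicate; the lowest count was without solvent replicate 3. Mitochondrial ones numbered 0, but 1 on the TPM scale, with median ratios or with quantile normalization, 2 without a variance trend, 3 by covered bases, and 0 to 2 without a replicate. The cytosolic median of -0.06 was -0.020 on the TPM scale, -0.024 with median ratios, -0.023 with quantile normalization, and -0.10 to -0.044 without a replicate. The mitochondrial median of -0.14 was -0.059 with a pseudocount of 5, -0.014 at a mean of at least 5 FPKM, 0.024 with reference transcripts only, 0.0095 with the most abundant reference transcript, -0.063 on the TPM scale and -0.15 to -0.045 without a replicate (solvent replicate 3).

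With the replicate number as a block, which leaves 1 residual degree of freedom, 3 genes were called in all, 1 mitochondrial member was below an unadjusted p of 0.05, the cytosolic median was -0.10, and the log2 fold changes of Rars and Wars2 were -0.042 and 0.012. The replicates share only a number, since there are 2 shared numbers and no label ties them to an animal or day.

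Signs turned for 13 members, among them Sars2, Fars2, Tars2 and Lars2, whose main values of -0.36, -0.29, -0.24 and 0.16 are among the larger ones. With reference transcripts only, log2 fold changes were 0.065 (Lars), 0.018 (Tars), 0.10 (Sars2), 0.0080 (Tars2), 0.070 (Vars2) and 0.17 (Wars2). With the most abundant reference transcript they were 0.065 (Lars), 0.15 (Mars), 0.018 (Tars), 0.021 (Hars2), 0.10 (Sars2), 0.070 (Vars2), 0.17 (Wars2) and -0.015 (Yars2). On the TPM scale they were 1.0e-05 (Mars), 0.014 (Sars), 0.027 (Hars2) and 0.028 (Wars2). With median ratios they were 0.0090 (Sars), 0.021 (Hars2) and 0.020 (Wars2). With quantile normalization they were 0.0025 (Mars), 0.00048 (Sars), 0.029 (Hars2) and 0.046 (Wars2). By covered bases they were -0.18 (Lars2) and 0.013 (Wars2). Leaving out a replicate gave ranges of -0.090 to 0.0086 (Mars), -0.066 to 0.080 (Rars), -0.59 to 0.014 (Fars2), -0.57 to -0.15 (Sars2), -0.087 to 0.055 (Hars2), -0.11 to 0.43 (Lars2), -0.54 to 0.062 (Tars2), -0.24 to 0.077 (Vars2), -0.055 to 0.039 (Wars2) and -0.079 to 0.17 (Yars2). The cause was not tested, except that the transcript settings by construction add up other transcripts.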
